A study of Mus musculus with 6 samples.

Results

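Peaks of open chromatin whose summits lay in internal coding exons were examined in nuclei of mouse hearts at postnatal day 1. A peak was a member if its summit fell in the coding part of an exon of a protein-coding gene and lay more than 3 kb from every annotated transcription start site (TSS). After overlapping peaks were merged over the 6 libraries, this rule gave 3376 exon regions of 169872 merged regions in all. They were set beside 70736 internal intron regions, chosen with the same distance from a TSS, and 51813 regions between genes.

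Accessible DNA was tagged by a transposase (Omni-ATAC-Seq) in 50000 nuclei per library. The Input libraries came from hearts of wild type mice (C57BL/6J in the study's methods) and hold all nuclei recovered from a 2.2 M sucrose cushion. The Myc libraries came from hearts labelled Nkx2-5 Cre/+; R26RSun1-Myc-Egfp/+, in which Cre from the Nkx2-5 gene switches on a myc-tagged Sun1 fusion under a CAG promoter at the ROSA26 locus, and the nuclei were pulled down with a Myc antibody. This lineage also contains smooth muscle and endothelial cells, so the tag does not mark cardiomyocytes alone. The PCM1 libraries came from hearts labelled WT, and nuclei were pulled down with an antibody to PCM1, a centriolar satellite protein that coats cardiomyocyte nuclei. In the paper, the nuclei pulled down for Myc and PCM1 also came from the 2.2 M cushion. The paper describes nuclei from this cushion as nearly all from cardiomyocytes. Each group had 2 biological replicates, and whether hearts were pooled is not given in the sources used here.

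Most accessible chromatin outside promoters lies in introns and between genes, where enhancers are found. Coding exons are also bound by nucleosomes and transcription factors, and some hold enhancers, binding sites of the insulator protein CTCF or start sites of shorter transcripts, so a stretch of DNA can carry both codons and regulatory sequence. Coding sequence tends to be richer in GC than introns, and long genes that are heavily transcribed can give transposase signal along their bodies.

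The libraries held between 75336 and 131500 peaks. The genome-wide background behind the peaks, which scales with depth, was 3.96 and 1.02 reads in the Input replicates, 1.44 in both Myc replicates, and 0.977 and 0.903 in PCM1, so Input replicate 1 was 4.38 times as deep as the shallowest library. Where no peak is listed, none passed at the depth of that library, and fewer open nuclei and a lower opening in each nucleus cannot be told apart. Peaks within 1 kb of the gene start were found for 9 to 11 of 12 cardiomyocyte markers, 10 to 15 of 15 fibroblast markers, 12 to 13 of 14 endothelial markers, 9 to 10 of 10 smooth muscle and pericyte markers, 5 to 7 of 8 epicardial markers, 5 to 6 of 10 erythroid markers and 1 to 4 of 10 immune markers. Over all genes of a list, the median rank percentile at the start was 86.6 to 91.5 for cardiomyocyte markers. It was 57.4 to 78.4 for endothelial, 59.2 to 76.2 for smooth muscle and pericyte and 46.2 to 75.4 for fibroblast markers. For epicardial markers it was 7.26 to 44.5, for erythroid markers 6.13 to 33.1 and for immune markers 0 in all libraries. The rank percentile is the place of a peak by its q-value among all peaks of its library, with 100 for the strongest and 0 where no peak was called. One measurement bears on the labels of the PCM1 libraries. Sun1 exons carried peaks in both PCM1 libraries, labelled WT, as they did in the tagged Myc hearts, and in neither Input library, and the cause was not tested.

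Sequences of 120 to 143 bases are shown for the exon regions on which the description turns, read from GRCm38 (mm10) on the strand of the gene. The first 4 are from the 8 regions present in all 6 libraries with the highest rank in their weakest library, and capitals mark coding bases. They are Spaca6 at chr17:17838277-17838396 (plus strand), Zfp771 at chr7:127254168-127254287 (plus strand), Slc4a5 at chr6:83268320-83268439 (plus strand) and Fry at chr5:150466289-150466408 (plus strand).
Spaca6: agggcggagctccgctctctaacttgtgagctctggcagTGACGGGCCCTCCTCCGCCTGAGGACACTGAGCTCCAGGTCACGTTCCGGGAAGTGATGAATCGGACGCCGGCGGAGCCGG
Zfp771: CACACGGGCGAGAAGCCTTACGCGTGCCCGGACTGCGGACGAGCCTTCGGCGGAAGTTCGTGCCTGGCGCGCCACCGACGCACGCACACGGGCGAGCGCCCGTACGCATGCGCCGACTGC
Slc4a5: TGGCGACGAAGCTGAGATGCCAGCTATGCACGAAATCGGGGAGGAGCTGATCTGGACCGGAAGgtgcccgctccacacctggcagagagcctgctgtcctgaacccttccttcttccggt
Fry: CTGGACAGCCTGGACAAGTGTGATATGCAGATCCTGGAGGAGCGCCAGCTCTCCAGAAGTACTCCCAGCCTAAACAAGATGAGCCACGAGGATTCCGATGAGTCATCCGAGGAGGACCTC

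In the next 3, capitals mark a match to the CTCF core motif, which in each reads on the strand opposite to the gene. They are the regions of 4930562C15Rik at chr16:4863024-4863166 (plus strand), Zswim5 at chr4:116986933-116987063 (plus strand) and Ccdc12 at chr9:110709856-110709975 (plus strand), which had the highest weakest-library ranks among regions with this motif in all 6 libraries.
4930562C15Rik: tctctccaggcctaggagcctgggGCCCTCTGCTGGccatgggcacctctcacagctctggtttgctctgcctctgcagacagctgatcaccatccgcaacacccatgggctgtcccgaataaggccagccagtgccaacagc
Zswim5: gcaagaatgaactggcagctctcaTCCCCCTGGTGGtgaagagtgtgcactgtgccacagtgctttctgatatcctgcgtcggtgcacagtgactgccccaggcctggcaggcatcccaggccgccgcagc
Ccdc12: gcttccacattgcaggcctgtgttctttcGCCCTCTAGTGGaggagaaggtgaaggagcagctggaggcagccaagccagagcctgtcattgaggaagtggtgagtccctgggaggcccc

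The last 2 belong to the gene that the Myc hearts carry as a fusion and to the gene with the longest coding sequence, with coding bases again in capitals. They are Sun1 at chr5:139223626-139223745 (plus strand) and Ttn at chr2:76808479-76808598 (minus strand).
Sun1: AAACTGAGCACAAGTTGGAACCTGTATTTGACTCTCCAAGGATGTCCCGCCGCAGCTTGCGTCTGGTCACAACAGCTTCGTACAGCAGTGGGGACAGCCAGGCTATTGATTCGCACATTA
Ttn: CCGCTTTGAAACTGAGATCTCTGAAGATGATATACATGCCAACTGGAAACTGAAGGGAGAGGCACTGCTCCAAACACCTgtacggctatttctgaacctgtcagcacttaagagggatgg

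Internal coding exons took a small and even share of the peaks. The share of summits in them was 1.53% and 1.37% in the Input pair, 1.38% and 1.36% in the Myc pair and 1.45% and 1.42% in the PCM1 pair. The mean was 1.45% ± 0.107 in Input, 1.37% ± 0.0110 in Myc and 1.44% ± 0.0166 in PCM1 (SD, n = 2 each), and the Input replicates lay further apart than the Myc or PCM1 replicates. Over the 6 libraries the mean was 1.42% ± 0.0619 (SD, n = 6). The same exons cover 25.2 Mb, or 0.951% of the sequenced assembly, so that summits fell in them 1.43 to 1.60 times as often as their length alone would give. With 2 libraries per group, an exact permutation test of 2 libraries against 4 can reach a one-sided p of 0.0667 at best, so no test between groups was run.

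**Figure D1:**
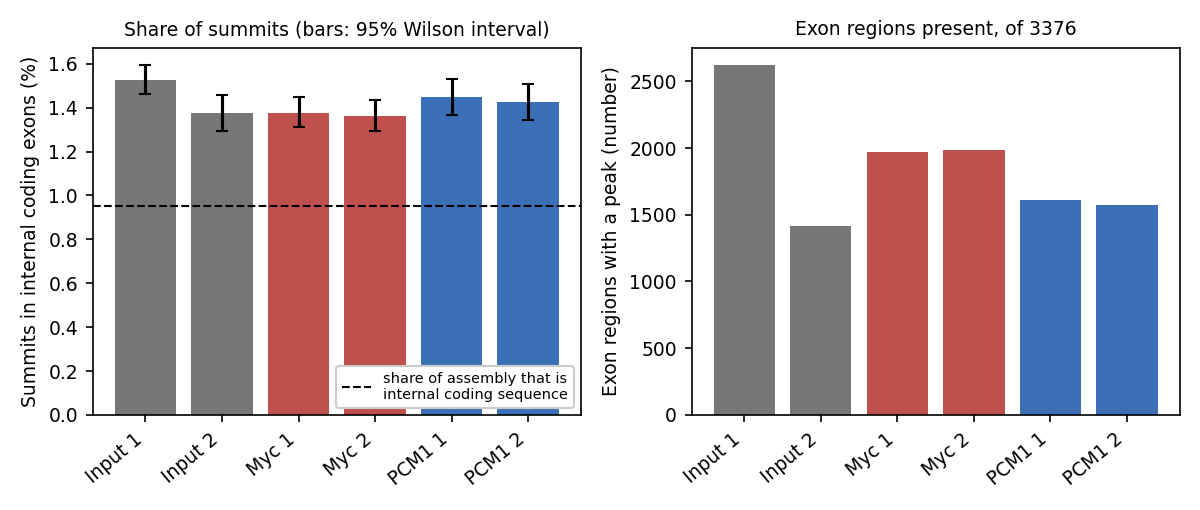
The left panel plots the percent of summits in internal coding exons for each library with 95% Wilson intervals, which cover counting error only, and a dashed line at the 0.951% of the assembly that such exons cover. The right panel plots how many of the 3376 exon regions had a peak in each library, from 1415 in Input replicate 2 to 2621 in Input replicate 1.

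The number of exon regions with a peak was highest in the deepest library, but Input replicate 2 had fewer than both PCM1 libraries at a slightly higher background. It was 2621 and 1415 in the Input pair, 1972 and 1984 in the Myc pair and 1608 and 1572 in the PCM1 pair. Of the exon regions of Input replicate 2, 93.6% were found in Input replicate 1, but only 50.6% in the reverse direction. Between the Myc replicates the shares were 77.9% and 77.4%, and between the PCM1 replicates 70.6% and 72.3%.

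Coding summits 2 to 3 kb from a TSS, just outside the rule, numbered 74 to 142 per library with median rank percentiles between 40.2 and 50.2. Those 3 to 4 kb away, just inside it, numbered 65 to 137 with medians between 42.4 and 55.2. The median was higher just inside the limit than just outside it in all libraries except Input replicate 2, where it was 45.0 against 50.2. The median distance of an exon region from the nearest TSS was 13025 bp.

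Of the 3376 exon regions, 832 (24.6%) were called in all 6 libraries, beside 23.6% of the intron regions, 23.1% of the regions between genes and 28.8% of all merged regions. The 95% Wilson interval of the exon share was 23.2 to 26.1%, for counting error only. A further 1030 exon regions (30.5%) were called in 1 library alone, and 436 of these, or 42.3%, belonged to Input replicate 1. Within the 832 common regions the summits lay close together, with a median distance of 19 to 30 bp between any 2 libraries. Even so, the summit was coding in all 6 libraries in only 399 of them (48.0%), and in the other regions at least 1 library had its summit outside the coding exon.

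**Figure D2:**
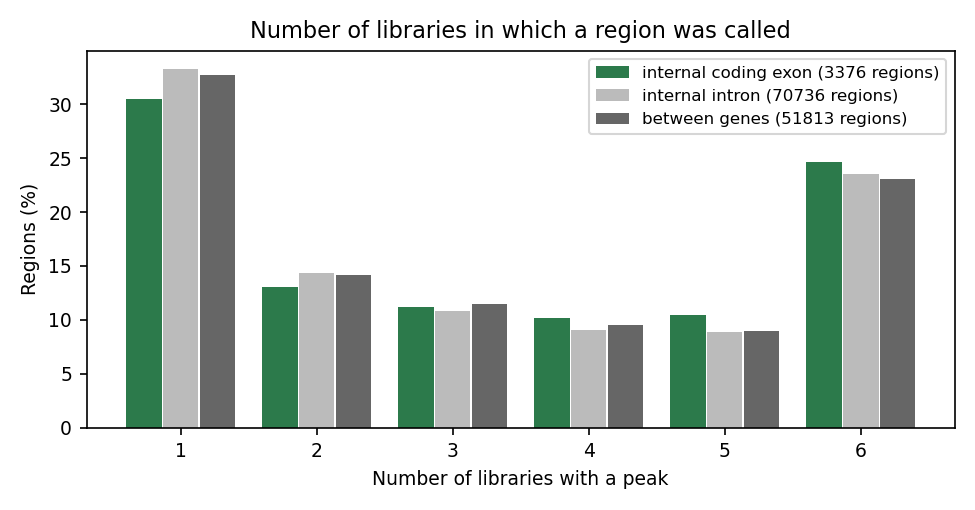
The bars give the percent of regions called in 1 to 6 libraries for internal coding exons, internal introns and regions between genes. The 3 classes have a like shape, with most regions in either 1 library or all 6.

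Exon peaks were slightly weaker than intron peaks, and a difference in length was not detected. The median length was 322 bp for exon peaks and 323 bp for intron peaks as means over the libraries, a difference of -1.25 bp ± 5.93 (SD, n = 6) with an exact p of 0.625. The median fold enrichment of the pileup over the local background was 4.99 and 6.19 in exon peaks of the Input pair, 5.74 and 5.75 in the Myc pair and 5.41 and 5.69 in the PCM1 pair. It was lower than in intron peaks in 6 of 6 libraries, with a mean difference of -0.174 ± 0.0560 (SD, n = 6). The median rank percentile was also lower in 6 of 6 libraries, at 41.6 against 43.5 on average. Both differences had an exact p of 0.0312, the smallest that sign flips over 6 libraries allow, and an adjusted p of 0.0375 (two-sided exact permutation test, Benjamini-Hochberg over 6 measures). Since the libraries share many regions, these p-values do not measure the spread over exons, and neither call held in every setting. Rank did not pass with a limit of 1 kb (adjusted p = 0.075, exact test) or with the starts of all transcripts (0.0625), and fold did not pass with equal numbers of peaks (0.0625) or with all transcripts (0.0938). Only 1.84 to 3.16% of exon peaks lay above rank percentile 90 of their library.

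**Figure D3:**
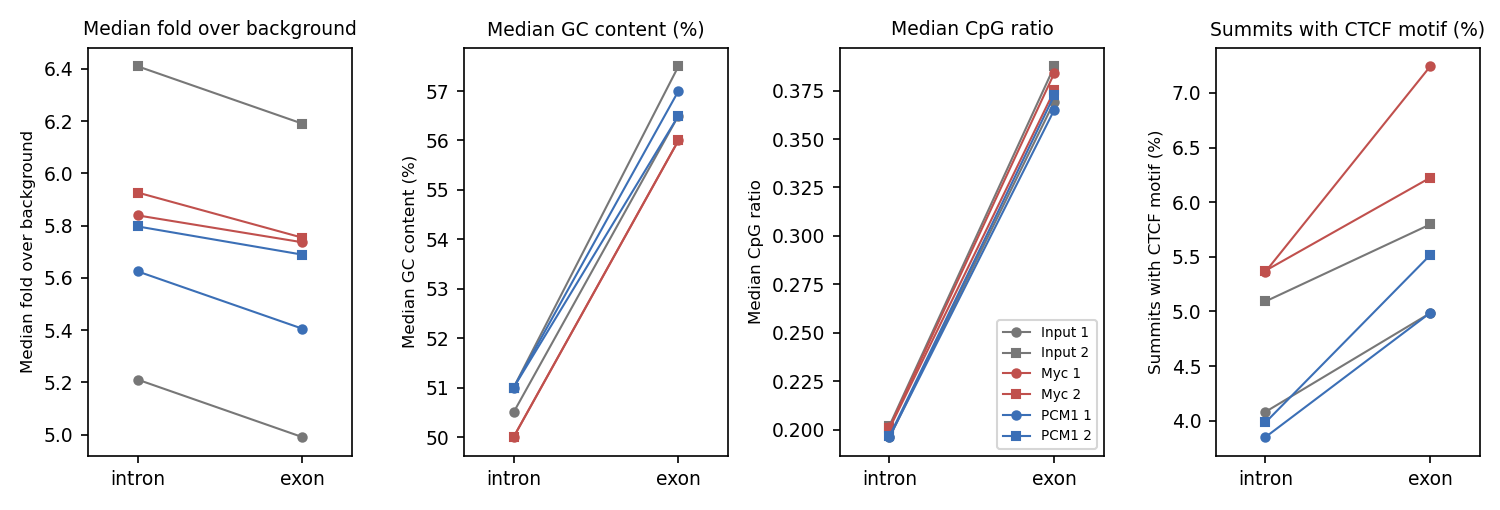
Each line joins the intron and exon values of 1 library for the median fold enrichment, the median GC content, the median CpG ratio and the percent of summits with a CTCF motif, on axes that do not start at 0. The fold falls from intron to exon in all 6 libraries and the other 3 measures rise in all 6.

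A typical exon peak reached beyond its exon. A median of 57.0 to 61.8% of its length was coding, and 18.0 to 22.1% of exon peaks per library were wholly coding. Summits were spread evenly along the exon. Among 1915 regions in middle coding exons of 80 to 300 bp, the 5 equal parts of the exon from its 5′ end held between 19.3 and 20.7% of the summits each.

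The density of regions varied with exon size and place in the gene. It was 117 per Mb in coding segments under 100 bp, 133 per Mb in those from 100 to under 200 bp and 166 per Mb in those from 200 to under 500 bp. It was lower again in longer segments, with 137 per Mb under 1000 bp and 110 per Mb from there on. Most regions, 2543 of 3376, were in middle coding exons, at 129 per Mb. The 644 regions in last coding exons had a density of 160 per Mb, and those in first coding exons, of which only 86 lay beyond 3 kb from a TSS, had 125 per Mb. No test was run on these densities, since exons are not replicates.

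The DNA under exon summits was richer in GC and CpG than that under intron summits. In windows of 200 bp the median GC content of exon summits was 56.0 to 57.5% per library, and the difference from intron summits was 6.0 percentage points ± 0.316 (SD, n = 6). The median ratio of observed to expected CpG was 0.376 in exons and 0.199 in introns as means over the libraries. Both were higher in 6 of 6 libraries, with an exact p of 0.0312 and an adjusted p of 0.0375 each. Sequence is read from the reference genome, and the libraries share many regions, so they are not independent samples of exons. These p-values, and that of the CTCF motif below, therefore do not measure the spread over exons. Taken per region, the median GC content was 55.5% in exon regions and 49.0% in windows at the centre of all 151865 internal coding segments. CpG-rich windows, with at least 50% GC and a CpG ratio of at least 0.6 as in CpG islands, made up 15.5% of exon regions, 1.24% of intron regions and 4.76% of all segments. Among exon regions of a single library they were 10.5%, and among those of all 6 libraries 23.1%. Their share also rose in intron regions, from 0.684% in 1 library to 2.20% in all 6.

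Of the motifs searched, that of CTCF, a zinc finger protein that sets the borders of chromatin loops, had the highest share in exon windows relative to all coding segments. A match to its core motif on either strand lay in 149 of the exon windows (4.41%) and in 0.352% of the windows of all internal coding segments. Within libraries the share of exon summits with this motif was 4.99% and 5.80% in the Input pair, 7.24% and 6.22% in the Myc pair and 4.99% and 5.52% in the PCM1 pair. It exceeded the share of intron summits in 6 of 6 libraries, by 1.17 percentage points ± 0.453 (SD, n = 6; exact p = 0.0312, adjusted p = 0.0375). It lay on either side of the share between genes, with a mean difference of -0.139 ± 0.509 (SD, n = 6). The motif was in 1.46% of exon regions of 1 library and in 6.49% of those of all 6. Intron regions had a like rise, from 1.44% in 1 library to 5.32% in all 6. Between genes the share in all 6 was 6.88%. In the exon windows, the median distance from the summit to the centre of the nearest match was 30 bp, and 24 of the 149 lay more than 50 bp away. With the starts of all transcripts counted in the distance rule, the differences in GC content, CpG ratio and CTCF motif also kept their direction but did not pass, with adjusted p between 0.0625 and 0.15 by the same exact test.

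**Figure D4:**
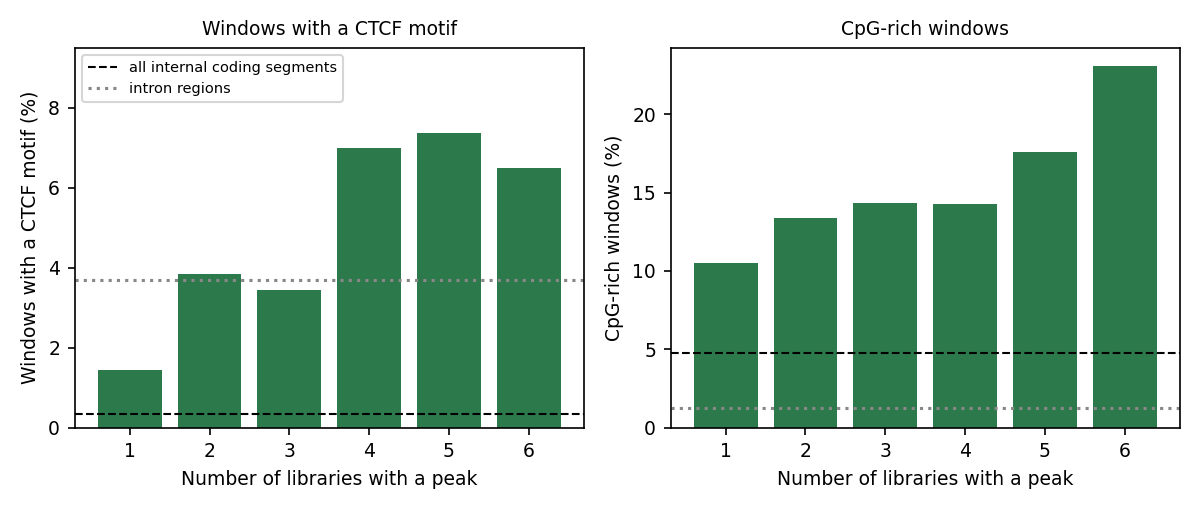
Bars give the percent of exon windows with a CTCF motif and the percent that are CpG-rich, for regions called in 1 to 6 libraries, with lines for all internal coding segments (0.352% and 4.76%) and for intron regions (3.69% and 1.24%). Both shares are lowest in regions of a single library. Both are also lower in intron regions of 1 library (1.44% and 0.684%) than in those of all 6 (5.32% and 2.20%), which are not drawn.

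The 3 CTCF examples printed above were strong in each library. The 4930562C15Rik region had rank percentiles of 96.8 and 93.0 in the Input pair, 91.5 and 91.3 in the Myc pair and 95.7 and 97.3 in the PCM1 pair. Its match lay upstream of coding exon 12 of 16, outside the coding sequence. Zswim5, a gene for a SWIM-type zinc finger protein, had its match in the last of 14 coding exons, with ranks between 85.1 and 93.9. In Ccdc12 the motif began in the intron before a coding exon of 62 bp, and ranks lay between 82.5 and 92.2.

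Motifs of factors that act in heart muscle were found in exon regions at shares near those of coding sequence at large and below those of intron regions. The MEF2 motif, bound by factors of muscle differentiation, was in 1.51% of exon windows, 1.82% of segment windows and 5.28% of intron regions. The GATA motif AGATAA was in 8.12% of exon windows, against 8.72% and 13.1%. The TEAD motif GGAATG, of the Hippo pathway factors, was in 11.5%, against 10.5% and 15.7%. The AP-1 motif TGANTCA was in 5.36%, against 4.71% and 9.16%, and the NKX motif TNAAGTG in 8.92%, against 9.07% and 12.2%. The GC-rich motifs went the other way. The SP/KLF motif GGGCGG was in 11.5% of exon windows, 4.48% of segment windows and 5.14% of intron regions, the ETS motif CCGGAAG in 3.38%, 2.17% and 1.37%, and the E-box CAGCTG of myogenic factors in 25.1%, 14.9% and 20.3%. All were searched on both strands, the ETS and TEAD motifs can share at most 2 bases, and these shares are a description, since only the CTCF motif was tested. GC content differed between the sets as given above, and its part in the motif shares was not tested.

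Starts that the basic annotation leaves out were about as common near exon regions as near coding segments at large. A start of the full GENCODE M21 or of RefSeq was within 1 kb of 676 of the 3376 exon summits (20.02%), beside 19.1% of all internal coding segments and 7.51% of intron regions. The share was 18.1% for regions of 1 library and 23.4% for those of all 6. Among the 8 strongest regions, 5 had such a start in the full GENCODE annotation.

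The strongest exon region was in Spaca6, which encodes a sperm protein needed for fusion with the egg. It spanned chr17:17837831-17838799 over coding exon 8 of 9, and its rank percentile was 99.8 and 99.4 in the Input pair, 99.1 and 99.3 in the Myc pair and 99.5 and 99.3 in the PCM1 pair. The fold was 20.5 and 19.9 in the Input pair, 18.1 and 18.6 in the Myc pair and 18.2 and 18.1 in the PCM1 pair. All 6 libraries were within a narrow range, and the summit was coding in 5 of them. A start in the full GENCODE annotation lay 56 bp from its summit. The Cacna1a region, chr8:84638920-84640006, covered the last of 47 coding exons of the pore subunit of the P/Q-type calcium channel, with ranks between 98.2 and 99.5. Starts of the full GENCODE annotation and of RefSeq lay 597 and 471 bp from its summit. The Atn1 region, chr6:124745245-124746234, was in coding exon 5 of 9 of atrophin 1, a transcriptional corepressor, and also lies in the overlapping gene Gm45234, from which its signal cannot be told apart. Its ranks lay between 96.7 and 98.5, and a start of the full GENCODE annotation was 71 bp from its summit.

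The other 5 were also far from any start of the basic annotation, though not all were far from one in the full GENCODE annotation. Zfp771, a zinc finger gene, had its region in the last coding exon at chr7:127253751-127254769, with ranks from 96.3 to 98.3 and the nearest start of any annotation 6439 bp away. Slc4a5, a sodium bicarbonate cotransporter, had its region at chr6:83268065-83268622 over exon 11 of 25 and the following splice donor, 31005 bp from a TSS of the basic annotation. Its fold was 26.8 and 23.2 in the Input pair, 24.1 and 22.5 in the Myc pair and 22.0 and 19.8 in the PCM1 pair, so that no library stood apart. The Slc4a5 summit was coding in 4 libraries. Fry, a large scaffold protein of the cytoskeleton, had its region at chr5:150466105-150466734 in exon 52 of 61, with ranks from 93.6 to 97.5 and the lowest GC content of the 8, 55.5%. Kank3 and Ankrd24, both genes for ankyrin repeat proteins, had regions in exons of 1251 and 1377 bp, with weakest ranks of 95.5 and 92.7. Starts of the full GENCODE annotation lay 213 and 163 bp from their summits.

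Exon regions were spread over many genes. Of the 16669 protein-coding genes with internal coding sequence, 2750 (16.5%) held at least 1, and of these 2285 held 1, 373 held 2 and 92 held 3 or more. The 8 genes with the most were Ttn with 28, Dst with 9, Ryr2 with 8, Zan, Syne2, Macf1 and Syne1 with 7 each, and Sun1 with 6. Except for Sun1 these are genes of long coding sequence. Dst and Macf1 encode spectraplakins that link actin to microtubules, and Syne1 and Syne2 encode nesprins that tie the nucleus to the cytoskeleton. Their exon regions were stable in part. A Macf1 region at chr4:123455246-123455817 had ranks of 94.7 and 89.2 in the Input pair, 88.1 and 88.6 in the Myc pair and 88.5 and 93.6 in the PCM1 pair, and a Syne2 region at chr12:76104462-76105391 had ranks of at least 78.9. Of the 7 regions of Zan, a sperm protein gene, 5 were called in 1 library alone.

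Ttn encodes titin, the spring of the sarcomere, and its exon regions were weak and unevenly called. The gene had 107 kb of internal coding sequence and 0.262 exon regions per kb. Its regions were present 19 and 9 times in the Input pair, 3 and 3 in the Myc pair and 12 and 12 in the PCM1 pair. Both Myc libraries were below all 4 others, and of the 92 genes with at least 3 exon regions this was so for 1 (1.09%), which was Ttn. Both Input libraries were above all others for 4 of the 92 (4.35%), and both PCM1 libraries below all others for 6 (6.52%). These shares are a description and not a test, since a region is a member only through libraries in which it was called. Of the 92 genes 64 held 3 regions and 19 held 4, where ties leave little room for a pair to stand apart, and Ttn held 28. No Ttn region was present in both Myc libraries, while 5 were in both Input and 8 in both PCM1 libraries. The Myc libraries were deeper than Input replicate 2 and the PCM1 libraries by the background given above. The 27 intron regions of Ttn were present 24 and 11 times in the Input pair, 11 and 13 in the Myc pair and 12 and 16 in the PCM1 pair, so the Myc values did not stand apart there. With the strongest 75336 peaks of each library, an alternative chosen after seeing the data, the exon counts were 4 and 9 in the Input pair, 1 and 1 in the Myc pair and 12 and 10 in the PCM1 pair. The intron counts were then 11 and 11 in the Input pair, 6 and 7 in the Myc pair and 12 and 15 in the PCM1 pair, so that at equal numbers the Myc libraries were the lowest in introns too.

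Most Ttn regions were called in few libraries and with a low fold. Of the 28 regions 16 were called in 1 library and 0 in all 6, and 13 were in exons of at least 1000 bp, with 5 in the exon of 17106 bp. The median fold of the 55 peaks with a coding summit was 3.29, and their median coding share was 100%. The strongest region was chr2:76808381-76808705, over an exon of 140 bp, whose rank was 74.6 and 0 in the Input pair, 0 and 57.7 in the Myc pair and 64.7 and 59.4 in the PCM1 pair. It was absent in 1 library each of Input and Myc. Its summit was coding in 2 libraries, and the 74.6 of Input replicate 1 is of a peak with a non-coding summit.

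Sun1, an inner nuclear membrane protein and the carrier of the tag in the Myc hearts, had 6 exon regions in 2.72 kb of internal coding sequence, or 2.21 per kb. None was present in either Input library, 4 and 4 were present in the Myc replicates, and 3 and 6 in the PCM1 replicates. Of the 92 genes with at least 3 exon regions, Sun1 was the 1 (1.09%) with fewer in both Input libraries than in every other library. All 6 Sun1 regions became members through Myc or PCM1 peaks, so this count is a description and not a test. Most of the 92 genes hold only 3 or 4 regions, where ties leave little room for a pair to stand apart. Among all exon regions, 19.7% were absent from both Input libraries. The region at chr5:139223542-139223829, over coding exon 2 of 22, had ranks of 0 and 0 in the Input pair, 57.0 and 55.5 in the Myc pair and 83.1 and 76.1 in the PCM1 pair. That at chr5:139225225-139225543, over coding exon 3, had ranks of 0 and 0 in the Input pair, 38.6 and 45.9 in the Myc pair and 86.5 and 79.1 in the PCM1 pair. In both, the PCM1 libraries were higher than the Myc libraries, which in turn were above Input. The 17 Sun1 peaks with a coding summit had a median length of 232 bp and a median coding share of 78.4%, and the exons were 146 to 240 bp long. Starts of the full GENCODE annotation lay 8, 77, 56, 1260, 808 and 38 bp from the summits of the 6 regions, in order from the 5′ end. The 3 intron regions of Sun1 were present in the Input replicates 3 and 2 times, in Myc 3 and 3 times, and in PCM1 2 and 3 times. Reads from the tag and from the gene itself cannot be told apart in these lists.

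**Figure D5:**
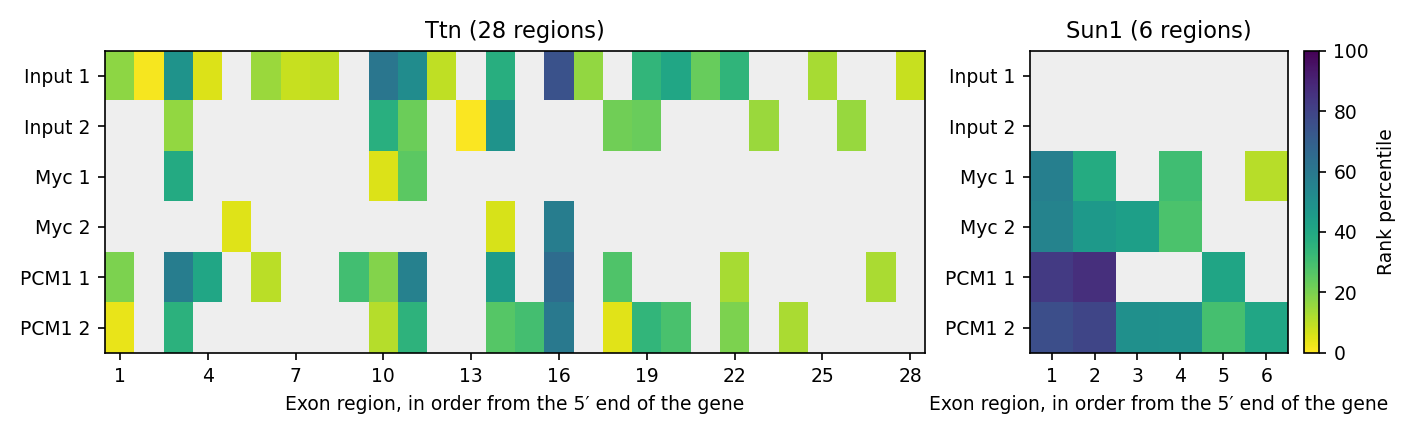
Each column is an exon region of Ttn (28) or Sun1 (6), ordered from the 5′ end of the gene, and each row a library. Colour gives the rank percentile of the peak and grey marks no peak. The Myc rows of Ttn hold 3 peaks each and the Input rows of Sun1 hold none.

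Few exon regions belonged to 1 group. Present in both libraries of a group and in no other library were 45 for Input (1.33%), 40 for Myc (1.18%) and 11 for PCM1 (0.326%). The same shares were 1.24%, 1.73% and 0.318% over intron regions, 1.11%, 2.3% and 0.222% between genes, and 1.08%, 1.84% and 0.254% over all merged regions. For Myc the exon share was below that of each other set, and no test was run. These counts moved with the libraries used. Without Input replicate 1, the deepest, they were 92 for Input, 158 for Myc and 36 for PCM1. Without Input replicate 2 the Input count was 472. Without Myc replicate 1 or 2 the Input count was 66 or 68, and the PCM1 count 17 in both cases. Without a replicate of its own, the Myc count was 179 or 187 and the PCM1 count 111 or 140. With equal numbers of peaks they were 19, 29 and 44.

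The regions of single groups were of middle or low rank. For Input the 3 strongest were in Cga, the alpha subunit of glycoprotein hormones, with ranks of 52.2 and 41.1, in Itga11, a collagen-binding integrin, with 57.2 and 31.8, and in Krt28, a keratin, with 30.8 and 27.8. For Myc they were in Kif13a, a kinesin motor, with ranks of 68.5 and 43.0, in Col28a1, a collagen, with 41.1 and 40.6, and in Btbd18, with 35.4 and 42.3. For PCM1 they were in Camta1, a calmodulin-binding transcription activator, with 33.3 and 40.2, in Pm20d1, a secreted enzyme that makes N-acyl amino acids, with 33.0 in the weaker library, and in coding exon 12 of Sun1, with 41.3 and 29.6. In Cga, Krt28, Col28a1 and Pm20d1 the summit was coding in only 1 of the 2 libraries.

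Gene groups of the heart were described by the number of their genes with an exon region, beside the 16.5% over all genes and a density of 133 regions per Mb of internal coding sequence. Of 29 sarcomere and Z-disc genes 15 held a region, and the 46 regions came to 217 per Mb with Ttn and 172 without it. The sarcomere regions were present 34 and 19 times in the Input pair, 14 and 15 in the Myc pair and 25 and 23 in the PCM1 pair. Without Ttn the numbers were 15 and 10, 11 and 12, and 13 and 11, so that the Myc values did not stand apart without Ttn. Synpo2l, an actin-bundling protein of the Z-disc, had ranks from 81.6 to 92.2, and Csrp3, the muscle LIM protein, from 71.7 to 88.6. The Csrp3 summit was coding in 2 libraries. The Myh6 and Myh7 regions, in the adult and fetal cardiac myosin heavy chains, were weaker, with best ranks of 56.3 and 50.8. In Myh6 the pileup was 47 to 182 reads and the fold over the local background 2.06 to 2.39. Reads can be split between these near-identical neighbours, and whether this bears on the ranks was not tested.

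Of 23 genes for calcium handling and ion channels 12 held a region, at 224 per Mb, but only 2 of the 22 regions were in all 6 libraries. These were in Camk2d, the main calmodulin kinase of the heart, with ranks from 66.5 to 89.7, and in Cacna1c, the pore of the L-type calcium channel, with ranks from 62.5 to 86.3. The Camk2d summit was coding in 2 libraries. Ryr2, the calcium release channel, held 8 of the 22, present 6 and 3 times in the Input pair, 3 and 1 in the Myc pair and 1 and 3 in the PCM1 pair. Of 22 cardiac transcription factor genes 9 held a region, 13 in all at 403 per Mb. Mef2a, with ranks from 53.8 to 79.7, and Irx4, the ventricular homeobox factor, with ranks from 35.8 to 63.9, had theirs in the last coding exon in all 6 libraries.

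Of 29 giant cytoskeletal and scaffold genes 21 held a region, 61 in all at 187 per Mb, and Sptbn4, a beta spectrin, had the strongest, with ranks of 97.9 and 97.3 in the Input pair, 96.7 and 96.5 in the Myc pair and 96.3 and 91.9 in the PCM1 pair. Of 30 chromatin regulators 16 held a region, at 151 per Mb. Ehmt1, a histone H3K9 methyltransferase, led these with ranks from 89.1 to 96.0 and a start of the full GENCODE annotation 4 bp from its summit. Of 9 genes of the nuclear envelope list 3 held a region, 8 in all at 437 per Mb, and 6 of the 8 were in Sun1. The Lmna region, in the gene of lamin A, had ranks between 57.8 and 65.4 in the 4 Input and Myc libraries and was absent from both PCM1 libraries, as were 39.5% of exon regions. Its summit was coding in Myc replicate 1 alone.

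Markers of other cell types held exon regions as well. Vwf and Plvap, both endothelial genes, had regions in all 6 libraries with ranks from 74.6 to 85.9 and from 54.0 to 88.1, and 6 of 14 endothelial genes held one. Notch3, a receptor of mural cells, had ranks from 79.2 to 89.4, whereas the other named genes of the smooth muscle and pericyte list had a region in 1 library each, Pdgfrb in PCM1 replicate 2 (rank 13.6) and Cnn1 in Input replicate 1 (rank 5.4). Of the cardiomyocyte markers 4 of 9 held a region, of the fibroblast genes 3 of 13, of the smooth muscle and pericyte genes 3 of 9, of the erythroid genes 3 of 8, of the immune genes 2 of 9 and of the epicardial genes 0 of 8. The density was 424 per Mb for cardiomyocyte markers, where Ryr2 held 8 of the 12 regions. It was 142 for smooth muscle and pericyte genes, 140 for endothelial, 117 for erythroid, 102 for immune and 91.1 for fibroblast genes. Ank1, an ankyrin of the red cell membrane skeleton, had a region in all 6 libraries with ranks from 76.6 to 93.4. It lay over coding exon 39 of 43, 4696 bp from a TSS, and its summit was coding in 2 libraries. Whether these regions reflect the cell type of their list was not tested.

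Large gene families differed widely in density. Zfp genes, which encode zinc finger proteins, held 48 regions in 44 of 418 genes, or 69.2 per Mb. Olfactory and vomeronasal receptor genes held 3 regions in 205 genes, or 9.17 per Mb, and all 3 were present in all 6 libraries. Collagen genes held 17 regions in 12 of 45 genes, at 90.5 per Mb, kinesin, dynein and myosin heavy chain genes 51 in 34 of 92, at 106 per Mb, and solute carrier genes 58 in 51 of 342, at 125 per Mb. Protocadherin genes held 1 region in 45 genes. Among developmental factors, 1 of 4 Hox, 5 of 24 Fox, 3 of 9 Sox and 3 of 13 T-box genes with internal coding sequence held a region. Their densities were 779, 172, 371 and 215 per Mb, all above the 133 per Mb over all genes. They rest on 2, 5, 4 and 3 regions.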

How the data were processed

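The authors aligned trimmed reads to mm10 (Bowtie2), marked duplicates, took out blacklisted regions, applied the Tn5 shift and ran MACS2 2.1.0.20160309 on every library separately at a q-value of 0.05. They deposited 1 peak list per library with the fold over local background (a ratio), the −log10 p-value, the −log10 q-value and a score, each the authors' own value of the summit.

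Members, intron regions and regions between genes were found with GENCODE M21 basic on GRCm38 and merged with bedtools 2.31.1, and a region was present where a peak of the library overlapped it by at least 1 bp. The rank and fold of a region are those of its strongest overlapping peak, whether or not that peak has a coding summit. The background was recovered from fold and p-value, with 99.8 to 100% of pileups whole within 0.02. Motifs and base composition were read in 200 bp around the summit of the strongest member peak. Exon and intron summits were compared within each library by two-sided exact sign flips over 6 libraries (Python 3.11.15, scipy 1.17.1), adjusted over 6 measures. The computations were tested on simulated data. Named regions were the 8 strongest in all libraries, the 3 strongest of each group, the 8 genes with most regions, up to 3 genes per list, Sun1, Ttn and 3 with a CTCF motif. Members, lists and rules were chosen with earlier results of these data known. Other thresholds, annotations, windows and left-out libraries were tried as alternatives. Intervals cover counting error only. Some regions that this rule selects are not reported here.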

Additional observations from a re-analysis of the deposited data

How the results depend on the processing

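The share of summits in internal coding exons moved from 1.42% to 1.32% with equal numbers of peaks, to 1.70% with a limit of 1 kb from a TSS and to 0.976% with all transcripts of the annotation, which add starts. The share of the assembly that such exons cover was not recomputed for the 1 kb limit or for all transcripts. The number of regions, 3376, became 2149 with equal numbers of peaks, 2341 with all transcripts and 3989 with the 1 kb limit. The share of regions in all libraries became 31.5% with equal numbers of peaks, 11.8% where only peaks with their own summit in an exon counted, and 26.6 to 29.1% in all remaining libraries when 1 was left out. The regions of Input alone were 19 with equal numbers of peaks and 29 with all transcripts. Those of PCM1 alone were 44 and 7, and 22 by own summits. Leaving out 1 library gave 52 to 472 for Input, 43 to 187 for Myc and 16 to 140 for PCM1.

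With all transcripts the differences between exon and intron summits no longer passed after adjustment for rank percentile (-1.72), fold (-0.105), GC content (5.50 points), CpG ratio (0.182) and CTCF motif (0.496 points). Neither did rank with the 1 kb limit (-1.90) or fold with equal numbers of peaks (-0.161). Peak length, which passed in no setting, turned to 5.75, 0.833 and 1.33 bp with equal numbers, the 1 kb limit and all transcripts. With 5 libraries the smallest exact p is 0.0625, so no difference can pass. Their values were then -2.28 to -1.63 for rank, -0.188 to -0.165 for fold, -2.60 to 0.50 bp for length, 5.90 to 6.10 points for GC content, 0.175 to 0.179 for CpG ratio and 1.03 to 1.26 points for the CTCF motif. Apart from leaving out libraries, the other planned values kept their direction and side of the threshold where they had a test, stayed within 1.5 times where they were counts, and otherwise moved by less than the spread or the counting interval. The causes were not tested. Between groups, with replicate numbers as pairs, no paired analysis was possible because the comparisons between groups come from no test. The exact test within libraries paired exon with intron summits of the same library, and it uses no replicate numbers.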
